A study of Homo sapiens with 6 samples.

Results

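The genes described here encode 10 enzymes that make serine and carry its carbon through folate: PHGDH, PSAT1, PSPH, SHMT1, SHMT2, MTHFD1, MTHFD1L, MTHFD2, MTHFD2L and ALDH1L2. They were taken by symbol from the 54261 symbols of the count table, and all 10 were found. Transcripts were counted by RNA-seq in 786-O, an established clear cell renal carcinoma line. Cells received CRISPR-Cas9 with control-sgRNA (PHF8 wildtype, 3 libraries) or with PHF8-sgRNA (labelled PHF8 knockout, 3 libraries), and both groups were grown in RPMI-1640 with fetal bovine serum. PHF8 is a histone demethylase that removes repressive methyl marks. Whether the knockout cells are a clone or a pool, how many guides were used and whether libraries of a group are separate cultures is not given in the sources used here, so the p-values rest on the spread among these 6 libraries, part or all of which may be technical.

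Cells make serine from a glycolytic intermediate in a short chain of reactions. PHGDH oxidises the intermediate, PSAT1 transfers an amino group from glutamate and PSPH removes the phosphate. Serine hydroxymethyltransferases then split serine into glycine and a carbon unit that is held on tetrahydrofolate, SHMT1 in the cytosol and SHMT2 in mitochondria. In mitochondria MTHFD2 and its paralog MTHFD2L oxidise the folate-bound unit, MTHFD1L releases it as formate, and ALDH1L2 can burn it to carbon dioxide while making NADPH. In the cytosol the trifunctional enzyme MTHFD1 loads formate back onto folate for the synthesis of purines and thymidylate. Tumour cells are known to favour the mitochondrial arm, and the stress factor ATF4 is a known activator of several of these genes.

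Libraries held 21533615 to 29095133 counted reads. CPM is a read count scaled to 1000000 reads by each library's total and its TMM factor from edgeR. PHF8 itself was counted at 833, 876 and 881 reads in control and at 259, 167 and 348 reads in knockout libraries, a log2 fold change of -1.78 (SE 0.21; edgeR adjusted p = 1.19e-04). Adjusted p-values are from the quasi-likelihood test of edgeR with Benjamini-Hochberg adjustment over all tested genes. All 6 markers of kidney tumour cells that were checked (PAX8, PAX2, EPAS1, VIM, KRT8 and KRT18) lay above 1 CPM in both groups. Of 10 markers of other cell types 1 lay above 1 CPM, CD68, a lysosomal protein gene that tumour lines also express. The summed level of these 10 was 44.9 to 49.7 CPM in control and 113 to 123 CPM in knockout libraries, and PTPRC, CD3E, MS4A1 and CDH5 had 0 reads in every library. Many genes moved: at an adjusted p under 0.05, 59.7% of the 14398 that could be tested passed, 28.9% as higher and 30.8% as lower in knockout cells. In 66.8% of tested genes the values of the groups did not overlap, with all knockout libraries higher in 32.6% and all lower in 34.2%.

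Of the 10 enzyme genes 9 had enough reads to be tested; PHGDH did not. Among these 9, 5 rose (PSAT1, SHMT2, MTHFD2, MTHFD1L and ALDH1L2) and 2 fell (SHMT1 and MTHFD1), while PSPH and MTHFD2L did not pass. In the same 7 genes the libraries of the groups did not overlap, beside 66.8% of all tested genes. Calls of 7 in 9 stand beside a background of 59.7%, and the median log2 fold change was 0.29 beside -0.01 over all tested genes. When a 2-fold difference was also required, as the series did, SHMT2 and ALDH1L2 remained as higher and none as lower, beside 9.2% and 14.2% of all tested genes. The 2 genes that fell encode the cytosolic enzymes of the folate arm, and 4 of the 5 that rose encode mitochondrial ones. Fewer cells that carry a transcript and less of it per cell cannot be told apart in these bulk libraries.

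**Figure D1:**
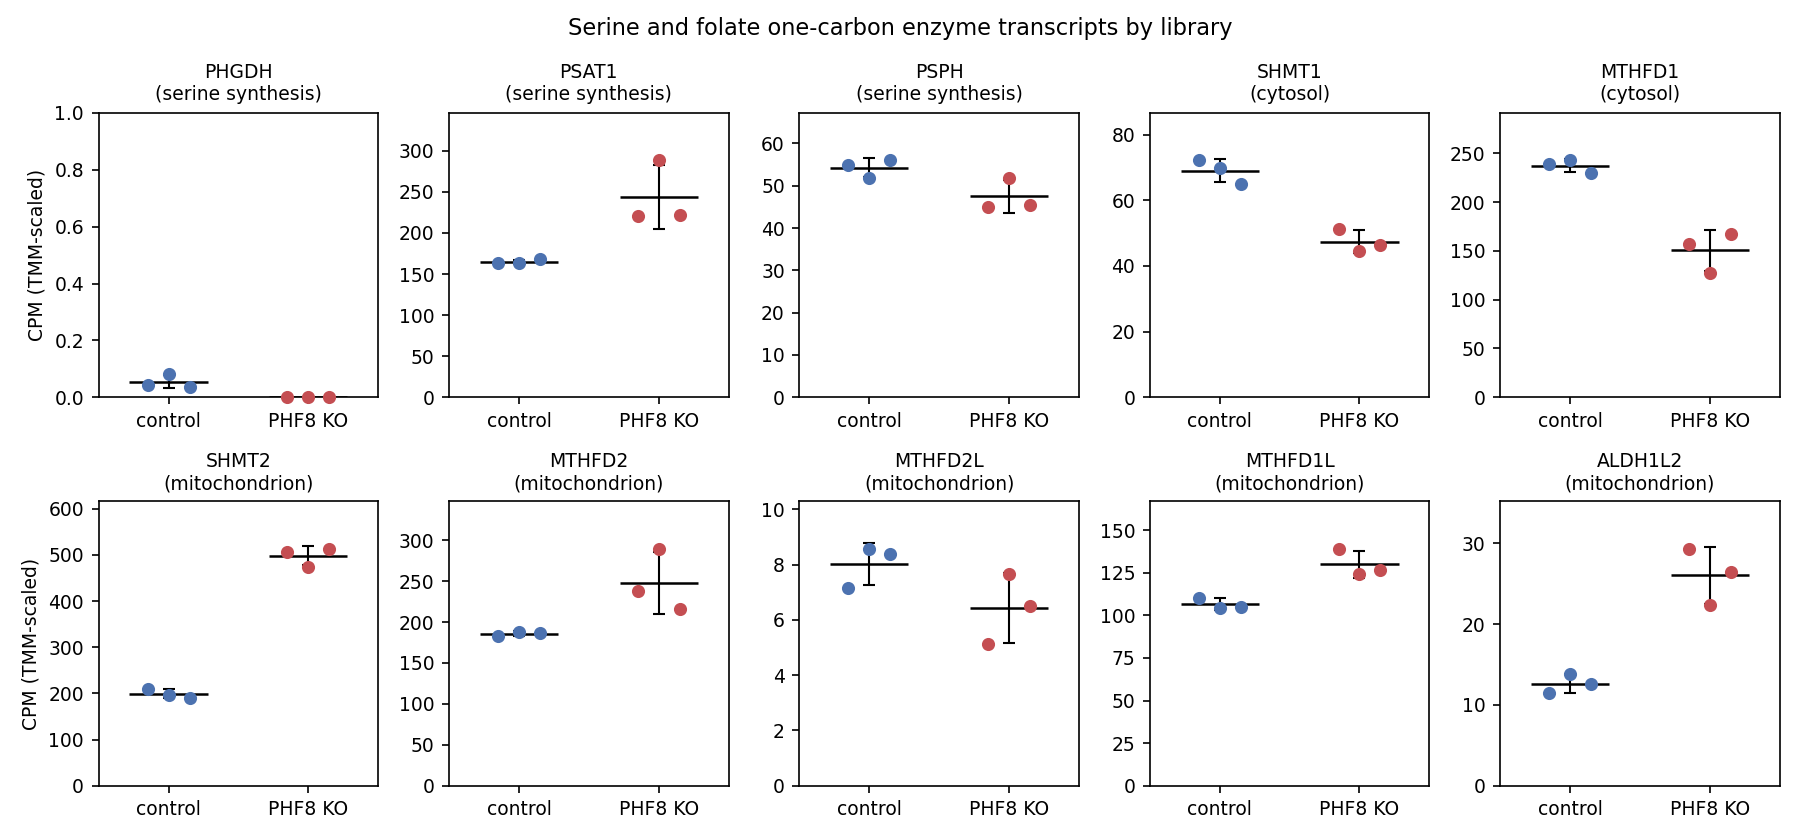
Level of each of the 10 transcripts in every library, in TMM-scaled CPM on axes that start at 0; dots are libraries, lines are group means and bars are SD (n = 3). SHMT2 rose from 199 to 498 CPM with no overlap, SHMT1 and MTHFD1 fell, and PHGDH was at or near 0 in all 6 libraries.

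PHGDH, the entry enzyme of serine synthesis, was close to undetected in both groups. The gene (chromosome 1, 119648411 to 119744218, GRCh38, plus strand) had 1, 2 and 1 reads in control libraries 1, 2 and 3, and 0 reads in each knockout library. Over the control group this was 4 of 70349537 reads, or 0.057 CPM by library totals (exact Poisson 95% interval 0.015 to 0.15). Over the knockout group 0 of 80648498 reads gave an upper bound of 0.046 CPM. A limit of 3 reads per library corresponds to 0.10 to 0.14 CPM, and every library lay below it, so no fold change is given. Such intervals cover counting error only. Of 19178 protein-coding genes matched in the annotation, 13172 (68.7%) had at least 5 reads over the control group, more than PHGDH. GENCODE lists no other gene that overlaps PHGDH, and whether reads of PHGDH were lost in alignment or counting was not tested. A coding neighbour, ZNF697, which lies on the opposite strand, had 995 to 1520 reads per library.

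The downstream enzymes of the same chain were well expressed. PSAT1 (chromosome 9, 78297125 to 78330093, plus strand), which makes phosphoserine, had 163, 164 and 168 CPM in control libraries 1, 2 and 3 and 221, 288 and 222 CPM in knockout libraries 1, 2 and 3. All knockout libraries lay above all control libraries, and library 2 was the highest. PSAT1 rose 1.48-fold (log2 fold change 0.56, SE 0.12; edgeR adjusted p = 0.0027). It passed in all 16 alternative analyses. PSPH (chromosome 7, 56011051 to 56051604, minus strand), which releases free serine, had 55.0, 51.7 and 56.0 CPM in control and 45.0, 51.9 and 45.5 CPM in knockout libraries. Knockout library 2 reached into the control range, and the log2 fold change of -0.19 had a 95% interval of -0.42 to 0.04 (edgeR adjusted p = 0.13). PSPH passed as lower without knockout library 2 (-0.26, adjusted p = 0.015), with library totals as the sole scaling (-0.36, adjusted p = 0.016) and after a correction for transcript length and base composition, the length-GC correction below (-0.50, adjusted p = 3.19e-04), so its adjusted p ran from 3.19e-04 to 0.37 over the alternatives.

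The 250 bases before the RefSeq start of PHGDH and of PSAT1 (GRCh38.p14) are shown because these consecutive enzymes of a single chain differed most in level. Windows were available for 7 of the 10 genes and not for PSPH, SHMT2 or ALDH1L2. Capitals would mark a match to TGATGNAA (the joint element of ATF4 and C/EBP proteins), CACGTG (an E-box, bound by MYC among others) or TGACNNNGC (the antioxidant response element), searched on both strands; neither window holds one of these strings.
PHGDH, chr1:119711684-119711933, plus strand: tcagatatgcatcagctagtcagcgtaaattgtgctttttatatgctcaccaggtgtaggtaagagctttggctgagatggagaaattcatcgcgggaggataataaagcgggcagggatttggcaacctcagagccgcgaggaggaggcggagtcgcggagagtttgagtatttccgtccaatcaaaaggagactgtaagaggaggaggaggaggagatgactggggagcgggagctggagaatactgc
PSAT1, chr9:78296875-78297124, plus strand: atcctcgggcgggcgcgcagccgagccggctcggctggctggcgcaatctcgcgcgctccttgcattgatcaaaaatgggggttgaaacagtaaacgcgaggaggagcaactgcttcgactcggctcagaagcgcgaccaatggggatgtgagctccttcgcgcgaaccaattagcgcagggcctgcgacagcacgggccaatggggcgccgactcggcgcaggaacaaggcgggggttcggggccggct

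In the folate arm the cytosolic enzymes fell. SHMT1 (chromosome 17, 18327860 to 18363563, minus strand), the cytosolic serine hydroxymethyltransferase, had 72.2, 69.9 and 65.1 CPM in control cells and 51.2, 44.5 and 46.5 CPM in knockout cells. The groups did not overlap, and SHMT1 fell 1.46-fold (log2 fold change -0.54, SE 0.10; edgeR adjusted p = 0.0015). Its 3′ end overlaps SMCR8 on the opposite strand, and the strand setting of the counting is not given in the sources used here, so reads of the 2 genes in the overlap cannot be told apart. MTHFD1 (chromosome 14, 64388031 to 64463457, plus strand) had 239, 243 and 230 CPM in control and 157, 127 and 168 CPM in knockout libraries. It fell 1.58-fold (log2 fold change -0.66, SE 0.11; edgeR adjusted p = 0.0010), with knockout library 2 the lowest and every knockout library below every control library. Both falls passed in all 16 alternatives, SHMT1 between -0.86 and -0.49 and MTHFD1 between -0.83 and -0.55 on the log2 scale.

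The mitochondrial hydroxymethyltransferase gene SHMT2 (chromosome 12, 57229573 to 57234935, plus strand) rose in every knockout library. Control libraries had 210, 197 and 191 CPM, and those of the knockout had 506, 474 and 513 CPM. The lowest knockout library was far above the highest control library. SHMT2 rose 2.50-fold (log2 fold change 1.32, SE 0.09, 95% interval 1.12 to 1.52; edgeR adjusted p = 1.13e-05), near the 95th percentile of all tested genes, which was 1.37. The SHMT2 transcript is short and rich in G and C (2157 bases, 56.1% GC). After the length-GC correction its rise was 1.79-fold (log2 fold change 0.84, adjusted p = 3.92e-06; range over alternatives 2.15e-32 to 2.27e-04). Its end overlaps NDUFA4L2 on the opposite strand, which had at most 20 reads per library. MTHFD1, MTHFD1L, MTHFD2, MTHFD2L and ALDH1L2 also overlap annotated genes on the opposite strand.

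ALDH1L2 (chromosome 12, 105019784 to 105107643, minus strand), the NADPH-producing formyltetrahydrofolate dehydrogenase of mitochondria, rose from a low level. It had 11.5, 13.8 and 12.6 CPM in control and 29.3, 22.4 and 26.4 CPM in knockout libraries, with no overlap. ALDH1L2 rose 2.06-fold (log2 fold change 1.05, SE 0.14; edgeR adjusted p = 2.61e-04). The call held in all 16 alternatives. Its transcript of 7428 bases is the longest of the 10, with 41.5% GC, and after the correction the rise was 3.88-fold (log2 fold change 1.95). The correction removes whatever part of a difference tracks length or base composition across genes, whatever its source, and which of the values is closer to the change in the cells was not tested.

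The dehydrogenase MTHFD2 (chromosome 2, 74186172 to 74217565, plus strand) rose, while its paralog MTHFD2L did not pass. MTHFD2 had 182, 188 and 187 CPM in control and 238, 290 and 216 CPM in knockout libraries. The control libraries lay close together, and knockout library 2 was the highest. MTHFD2 rose 1.34-fold (log2 fold change 0.42, SE 0.12; edgeR adjusted p = 0.012). Scaled by library totals alone, its log2 fold change was 0.25 (adjusted p = 0.10), without knockout library 2 it was 0.29, and after the length-GC correction it was 1.0 (adjusted p = 3.65e-05; range over alternatives 3.65e-05 to 0.10). MTHFD2L (chromosome 4, 74114174 to 74303099, plus strand) had 7.15, 8.57 and 8.37 CPM in control and 5.12, 7.67 and 6.51 CPM in knockout libraries, which overlap. Its log2 fold change was -0.32 with a 95% interval of -0.72 to 0.08 (edgeR adjusted p = 0.15). MTHFD2L passed as lower without knockout library 2 (-0.46, adjusted p = 0.034) and by library totals alone (-0.49, adjusted p = 0.042); the length-GC correction put it at -0.02 (adjusted p = 0.91; range over alternatives 0.034 to 0.91). Processed copies of MTHFD2 elsewhere in the genome had at most 11 reads per library.

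MTHFD1L (chromosome 6, 150865679 to 151101887, plus strand), the mitochondrial formate-releasing synthetase, moved least of the genes that passed. It had 110, 104 and 105 CPM in control and 139, 124 and 127 CPM in knockout libraries, which do not overlap. It rose 1.22-fold (log2 fold change 0.29, SE 0.09; edgeR adjusted p = 0.021). The call was lost in 6 of 16 alternatives: without control library 2 (adjusted p = 0.090), control library 3 (0.075) or knockout library 1 (0.073), without a filter on low counts, with the replicate number as a block and by library totals alone (adjusted p = 0.28; range over alternatives 0.0025 to 0.28).

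**Figure D2:**
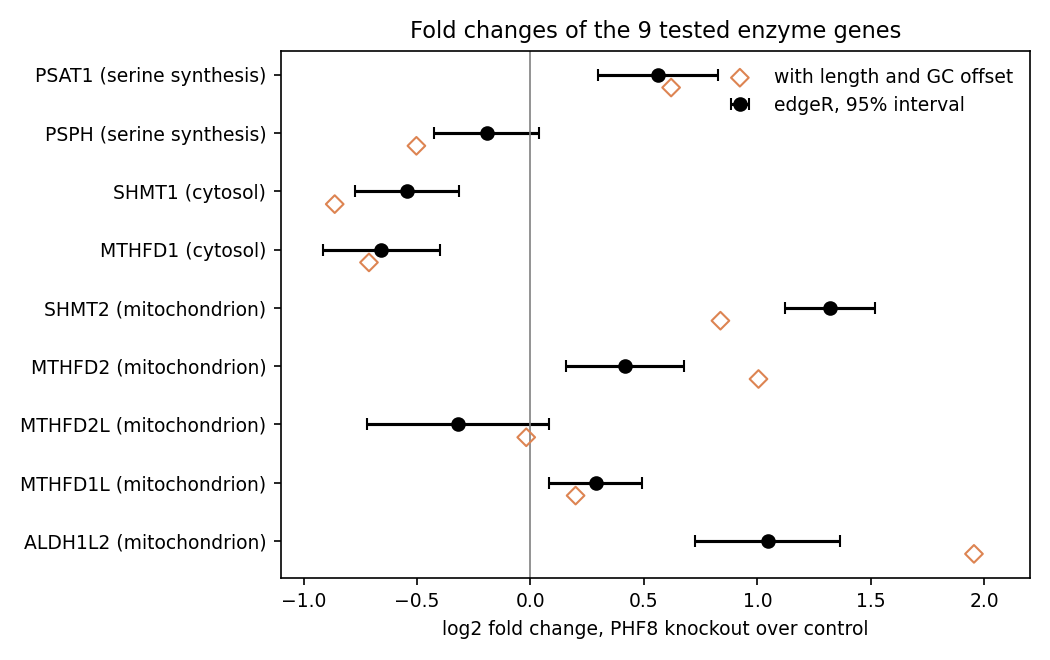
Log2 fold change of the 9 tested genes, knockout over control; black points are edgeR estimates with 95% intervals and open diamonds are estimates after the length-GC correction. SHMT2 and ALDH1L2 are the farthest to the right by edgeR, SHMT1 and MTHFD1 lie to the left with both, and the intervals of PSPH and MTHFD2L cross 0.

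MTHFD1L and MTHFD1 are paralogs that moved in opposite directions, and the windows before their RefSeq starts (GRCh38.p14) are printed for that reason. Capitals mark the motif matches. In the MTHFD1L window TGATGCAA lies 129 to 122 bases and CACGTG 154 to 149 bases before the start; in the MTHFD1 window CACGTG lies 15 to 10 bases before it.
MTHFD1L, chr6:150866236-150866485, plus strand: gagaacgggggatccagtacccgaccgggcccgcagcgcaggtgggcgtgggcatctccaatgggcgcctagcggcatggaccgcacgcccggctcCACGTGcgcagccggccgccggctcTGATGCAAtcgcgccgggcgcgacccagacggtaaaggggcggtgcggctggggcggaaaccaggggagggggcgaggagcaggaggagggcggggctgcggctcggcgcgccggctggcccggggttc
MTHFD1, chr14:64388103-64388352, plus strand: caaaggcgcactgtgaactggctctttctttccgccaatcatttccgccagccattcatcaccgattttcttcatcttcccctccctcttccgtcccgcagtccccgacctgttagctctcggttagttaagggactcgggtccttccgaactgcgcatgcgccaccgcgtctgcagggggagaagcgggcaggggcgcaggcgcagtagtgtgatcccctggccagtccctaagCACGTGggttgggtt

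RefSeq lists 4 windows for MTHFD1L: an overlapping one holds the same sites, and the other 2 hold no match. No further match was found in the 11 windows of the 7 genes. Over all 35116 windows of this length, 3.14% hold TGATGNAA, 6.34% hold CACGTG and 10.9% hold TGACNNNGC. A match says only that the letters are there, and the absence of one says nothing about binding outside these windows.

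Within each library, enzymes that are paralogs were set against each other, for 2 pairs a mitochondrial against a cytosolic member. Such a ratio of reads does not depend on how libraries are scaled. The ratio of SHMT2 to SHMT1 was 2.91, 2.82 and 2.93 in control and 9.88, 10.7 and 11.0 in knockout libraries. On the log2 scale it rose from 1.53 ± 0.03 to 3.39 ± 0.08 (SD, n = 3 each), a difference of 1.87 (exact permutation test, two-sided, p = 0.10, the smallest that 3 against 3 libraries can give). MTHFD1L to MTHFD1 went from 0.462, 0.429 and 0.455 to 0.888, 0.977 and 0.757, a log2 difference of 0.95. MTHFD2 to MTHFD2L, both mitochondrial, went from 25.5, 21.9 and 22.3 to 46.5, 37.8 and 33.3, a log2 difference of 0.74. For these 2 ratios the exact permutation p was also 0.10, and Benjamini-Hochberg adjustment over the 3 ratios left each at 0.10. In none of the 3 did the groups overlap. For SHMT2 to SHMT1 and MTHFD1L to MTHFD1 this was fixed in advance by the single genes. In each pair the mitochondrial gene was higher and the cytosolic gene lower in every knockout library. The p of 0.10 for those 2 ratios thus adds nothing to the single values. After the length-GC correction the differences were 1.70 for SHMT2 to SHMT1 and 1.03 for MTHFD2 to MTHFD2L. For the remaining pair, the corrected log2 fold changes of the single genes were 0.20 for MTHFD1L and -0.71 for MTHFD1.

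**Figure D3:**
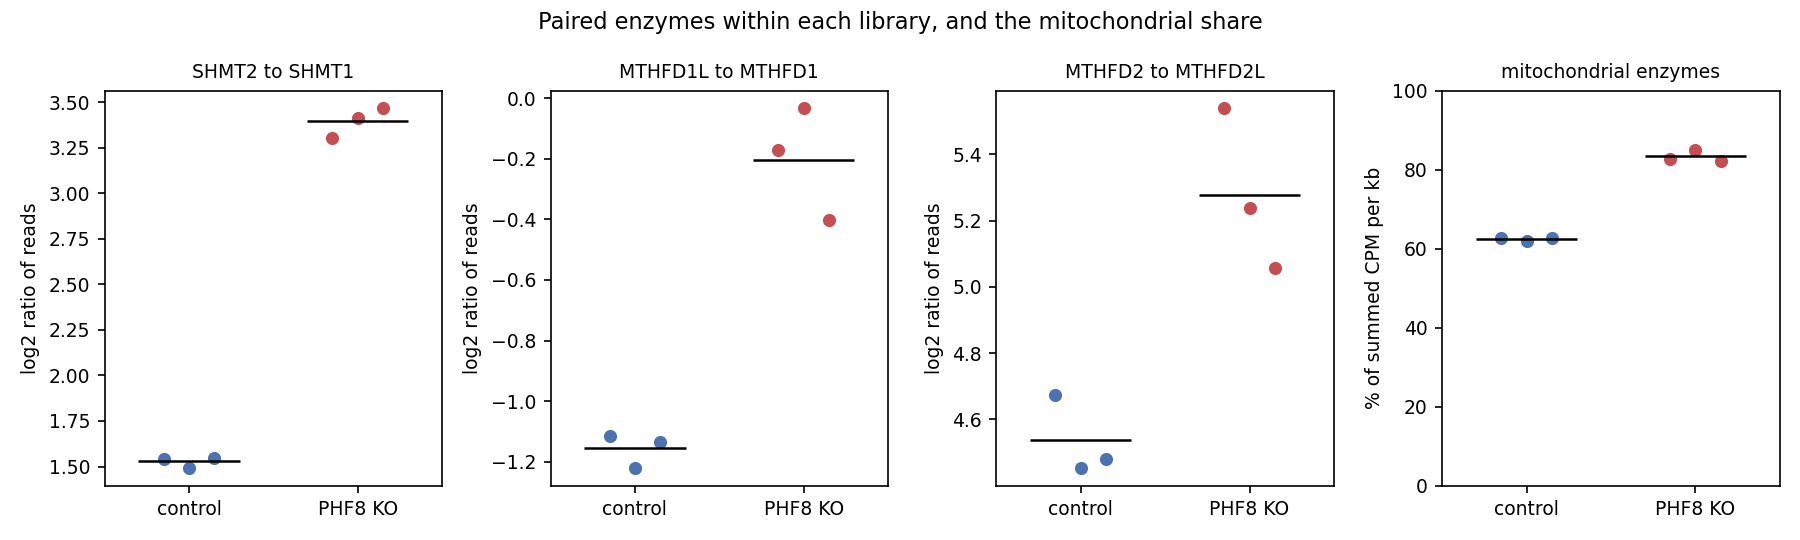
Log2 ratio of reads of 2 paired enzymes within each library (first 3 panels, axes that do not start at 0) and the mitochondrial share of the summed folate enzyme level per kilobase (last panel, percent); dots are libraries and lines are group means. All knockout libraries lie above all control libraries in each panel, and the mitochondrial share goes from 62.4% to 83.3%.

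Levels of different genes were ranked only per kilobase of the annotated canonical transcript. The ratios above are of reads not divided by length, so only their change between groups is read. In control cells SHMT2 stood highest at 92.4 ± 4.70 CPM per kb (SD, n = 3), followed by MTHFD1 at 75.2 ± 2.13 and PSAT1 at 74.8 ± 1.15, which did not differ beyond their spread. MTHFD2 came next at 42.2 ± 0.65 and MTHFD1L at 30.8 ± 1.02. PSPH at 27.5 ± 1.14 and SHMT1 at 27.3 ± 1.43 CPM per kb lay within each other's spread, and MTHFD2L (3.41 ± 0.33), ALDH1L2 (1.70 ± 0.16) and PHGDH were far below. In knockout cells SHMT2 reached 231 ± 9.57 and PSAT1 111 ± 17.5 CPM per kb. MTHFD2 (56.3 ± 8.52) now stood above MTHFD1 (47.7 ± 6.68), though their spreads overlapped, as did those of ALDH1L2 (3.51 ± 0.47) and MTHFD2L (2.73 ± 0.54). MTHFD1L (37.7 ± 2.31), PSPH (24.0 ± 1.93) and SHMT1 (18.7 ± 1.36) lay between these pairs.

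Summed per kilobase, the 5 mitochondrial folate enzymes (SHMT2, MTHFD1L, MTHFD2, MTHFD2L and ALDH1L2) went from 171 ± 4.66 to 331 ± 3.64 CPM per kb (SD, n = 3 each). The 2 cytosolic ones went from 103 ± 3.41 to 66.4 ± 7.48 CPM per kb. The mitochondrial share of the 7 was 62.7%, 61.8% and 62.8% in control and 82.7%, 85.0% and 82.2% in knockout libraries. SHMT2 alone made up 33.3% to 34.8% of the summed level in control and 57.0% to 59.2% in knockout libraries, while MTHFD1 went from 27.1% to 28.1% down to 10.4% to 13.2%. This sum was chosen after the single values were seen and carries no test.

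Knockout library 2 stood apart from the other knockout libraries over the whole table. A chi-square of counts per degree of freedom was 75.7 and 58.9 against knockout libraries 1 and 3, and 11.3 between those. For control library 1 it was 13.0 and 15.2 against control libraries 2 and 3, and 3.10 between those. Over all tested genes knockout library 2 was the highest of the 3 knockout libraries in 39.8%, in the middle in 17.7% and the lowest in 42.2%. Among the enzymes it was the highest of the 3 for PSAT1, PSPH, MTHFD2 and MTHFD2L and the lowest for SHMT1, SHMT2, MTHFD1, MTHFD1L and ALDH1L2, so that it lay in the middle for 0 of 9 genes. The transcripts it ranked highest had 36.9% to 48.3% GC, and those it ranked lowest 48.5% to 56.1% GC, apart from the long ALDH1L2 transcript at 41.5%. After the length-GC correction it was the highest for 4 genes, in the middle for 3 and the lowest for 2. The part of GC content and length in this pattern was not tested beyond that correction. Without knockout library 2, the 5 rises and 2 falls still passed, with log2 fold changes of 0.43 for PSAT1, 1.36 for SHMT2, 0.29 for MTHFD2, 0.32 for MTHFD1L, 1.15 for ALDH1L2, -0.50 for SHMT1 and -0.55 for MTHFD1, and PSPH and MTHFD2L passed as lower. In that run more genes passed over the whole table, 4647 as higher and 4895 as lower of 14680 tested.

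The transcripts whose profile over the 6 libraries lay closest were found among 7180 genes with at least 20 CPM on average, by Euclidean distance of log2 CPM after subtracting the control mean. For PSAT1 they were TRA2B, a splicing regulator gene (distance 0.034), and RNF149, a ubiquitin ligase gene (0.060). TRA2B had 225, 224 and 225 CPM in control and 301, 393 and 300 CPM in knockout libraries, with library 2 the highest as for PSAT1. For SHMT2 they were OAF (0.076) and THEM6 (0.082), with log2 fold changes of 1.35 and 1.30. For MTHFD2 they were CD47, which encodes a cell surface signal against phagocytosis, and PCMT1, a protein repair methyltransferase gene, both at 0.092. PHGDH had too few reads for a profile.

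Of 20 listed genes that take up, store and use folate 17 were tested, 5 rose, 5 fell and 7 did not pass, close to the background of 28.9% higher and 30.8% lower. The median log2 fold change was 0.08 beside -0.01 over all tested genes. FOLR1, the folate receptor gene, rose from 9, 21 and 13 reads in control to 75, 103 and 131 reads in knockout libraries, or 6.96-fold (log2 fold change 2.80, SE 0.30; edgeR adjusted p = 8.49e-05). Its knockout level was 4.03 ± 0.85 CPM (SD, n = 3), and after the length-GC correction its log2 fold change was 2.15. PDF, a mitochondrial deformylase gene that acts after formyl-methionine initiation, rose 1.93-fold, and ATIC, which uses formyl-folate in the last steps of purine synthesis, rose 1.42-fold. MTFMT, which formylates the mitochondrial initiator tRNA, fell 1.51-fold. TYMS, the thymidylate synthase gene, fell from 368 ± 12.0 to 290 ± 13.2 CPM (SD, n = 3 each, edgeR adjusted p = 0.0064), and did not pass when control library 2 was left out (adjusted p = 0.053; range over alternatives 8.45e-06 to 0.053). MTR, the methionine synthase gene, fell 1.66-fold, against a log2 fold change of 0.11 after the length-GC correction (adjusted p = 0.25; range over alternatives 2.95e-06 to 0.25). After the correction 6 of these genes rose and 3 fell, beside 30.5% and 28.1% of all tested genes. Without control library 2, 3 fell, beside 3628 of all 14722 genes tested in that run.

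Among 22 genes of serine and glycine transport and use, 19 were tested, 9 rose, 3 fell and 7 did not pass (median log2 fold change 0.44), beside 28.9% of all tested genes higher and 30.8% lower. SLC1A5, a plasma membrane carrier of glutamine and serine, rose from 243 ± 8.77 to 467 ± 45.5 CPM (SD, n = 3 each, 1.92-fold; edgeR adjusted p = 6.97e-05). SFXN2, a mitochondrial carrier gene of the sideroflexin family, rose 2.23-fold and GCAT, a mitochondrial enzyme of glycine formation from threonine, rose 2.25-fold, with a log2 fold change of 1.17 that was 0.49 after the length-GC correction. DLD, the dihydrolipoamide dehydrogenase shared by the glycine cleavage system and ketoacid dehydrogenases, fell 2.44-fold, and SRR, the serine racemase gene, fell 1.78-fold. SPTLC2, a subunit of the enzyme that joins serine to a fatty acid for sphingolipids, fell 2.01-fold; the length-GC correction left -0.16 on the log2 scale (adjusted p = 0.078; range over alternatives 5.37e-14 to 0.078). By library totals alone 5 of the list rose and 6 fell, beside 21.9% and 37.8% of all tested genes. After the correction 10 rose and 5 fell, beside 30.5% and 28.1%. Without knockout library 2, 5 fell, beside 4895 of all 14680 genes tested in that run.

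In the methionine cycle and transsulfuration, which receive carbon from folate and use serine to make cysteine, 13 of 16 genes were tested, 6 rose and 4 fell (median log2 fold change 0.19), beside 28.9% and 30.8% of all tested genes. MAT2A, which makes S-adenosylmethionine, rose from 331 ± 17.6 to 1188 ± 103 CPM (SD, n = 3 each), with a log2 fold change of 1.84 (SE 0.10; edgeR adjusted p = 4.53e-06), while MAT2B, its regulatory subunit gene, fell 1.85-fold. BHMT2, which remethylates homocysteine without folate, rose from 4.80 ± 0.19 to 26.3 ± 1.84 CPM (SD, n = 3 each, 5.48-fold). CBS, which joins serine and homocysteine, rose 2.69-fold, with 110, 84 and 115 reads in control and 300, 255 and 294 in knockout libraries. AHCYL2, a relative of adenosylhomocysteinase, fell 1.58-fold and stood at -0.26 after the correction (adjusted p = 0.11; range over alternatives 2.98e-04 to 0.11).

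All 13 purine synthesis genes were tested, of which 5 rose and 4 fell (median log2 fold change -0.11), beside 28.9% and 30.8% of all tested genes. By library totals alone 3 rose and 6 fell, beside 21.9% and 37.8%. PAICS and PPAT, which act early in the pathway, fell 2.55-fold and 2.71-fold, PAICS from 514 ± 16.7 to 202 ± 21.2 CPM (SD, n = 3 each; edgeR adjusted p = 1.89e-05). After the correction PAICS was at -0.55 and PPAT at -0.85 on the log2 scale, and both still passed. GMPS, the GMP synthetase gene, fell 1.61-fold, but the length-GC correction moved it to the higher side, at 0.34 (adjusted p = 0.048; range over alternatives 1.36e-07 to 0.048). ADSSL1, an adenylosuccinate synthase gene of low level, rose 3.45-fold. IMPDH1 rose 1.45-fold and did not pass after that correction (log2 fold change 0.08, adjusted p = 0.27; range over alternatives 3.33e-05 to 0.27). ATIC and GART stand in both the folate and the purine list, and MTR and MTRR in both the folate and the methionine list.

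**Figure D4:**
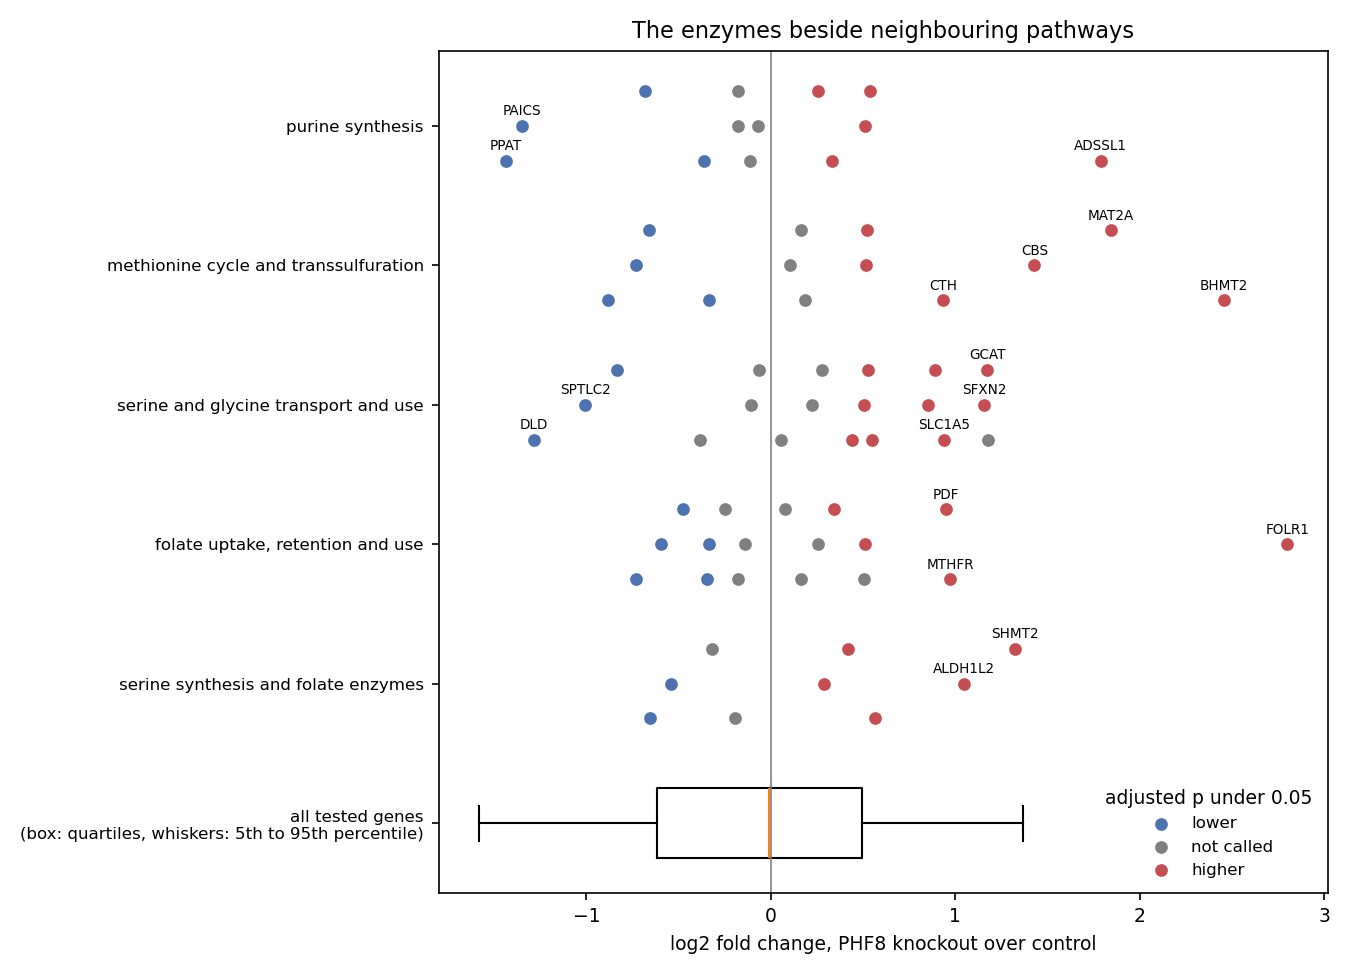
Log2 fold change (knockout over control) of each tested gene of 5 lists, beside the spread of all 14398 tested genes (bottom; box, quartiles; whiskers, 5th to 95th percentile). Red genes rose, blue genes fell and grey genes did not pass an adjusted p of 0.05; SHMT2 at 1.32 lies just inside the upper whisker at 1.37, and FOLR1, BHMT2, MAT2A, ADSSL1 and CBS lie beyond it.

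Besides PHF8, 6 known regulators of these enzymes and of their activators were listed, of which 5 were tested. Of these, 3 rose and 2 fell, beside 28.9% and 30.8% of all tested genes. ATF4 had 313, 286 and 297 CPM in control and 496, 572 and 505 CPM in knockout libraries, rising 1.76-fold (log2 fold change 0.81, SE 0.09; edgeR adjusted p = 1.10e-04). ATF4 stood at 0.25 on the log2 scale after the correction (adjusted p = 0.011; range over alternatives 2.77e-11 to 0.011). MYC, another activator, rose 1.65-fold. NFE2L2, which encodes the antioxidant factor NRF2 and acts on serine synthesis through ATF4, fell 1.81-fold, whereas KEAP1, its negative regulator, rose 1.74-fold. KDM4C, another histone demethylase, had a log2 fold change of -0.35 (adjusted p = 0.029), and the call was lost in 7 of 16 alternatives, among them without control library 2 (adjusted p = 0.10), control library 3 (0.15), knockout library 1 (0.063) or knockout library 3 (0.080) and after the correction (log2 fold change -0.05, adjusted p = 0.70; range over alternatives 0.0049 to 0.70). EHMT2, a widely expressed gene, was listed at 0 reads in every library and was not tested. These are transcript levels and say nothing of protein amount or activity.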

How the data were processed

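The authors deposited a table of raw counts of reads (whole numbers, not normalized) by gene symbol for 6 libraries. Per the labels (series design), reads after filtering were mapped to GRCh38 with HISAT2 (version 2.0.4, per the submitters' processing notes) and counted with HTSeq. Which strand setting and annotation release were used is not given in the sources used here. Columns were tied to samples by their titles.

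Knockout was compared with control in R 4.3.3 with edgeR 4.0.16 (glmQLFTest; limma 3.58.1), using TMM factors, filterByExpr, group as the only term and Benjamini-Hochberg adjustment over all 14398 tested genes. SE was derived from the fold change and the test's F. Positions, lengths and GC content are from GENCODE on GRCh38, matched by symbol (34408 directly, 1574 by an older symbol); windows before start sites are from RefSeq, GRCh38.p14.

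Alternatives were DESeq2 1.42.0, limma-voom, 3 other scalings, 2 other filters, robust dispersions, a replicate block, a length-GC correction (an offset per library from lowess trends, span 0.3, available for 92.4% of tested genes), a 2-fold criterion and leaving out each library. The 16 alternatives counted for single genes do not include the 2-fold criterion. The test and the correction were also run on simulated counts, in which far fewer genes changed than passed here. For the correction a trend with length but none with GC was put in. How either performs with as many changed genes as here was not tested. Genes, lists and tests were chosen with earlier results of these data known. Named were the 10 enzymes, 7 regulators (PHF8 among them), per direction the 3 called genes of smallest p in each of 4 other lists, and the 2 nearest profiles of PSAT1, SHMT2 and MTHFD2; a listed gene with fewer than 10 reads in all libraries is named only as not tested.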

Additional observations from a re-analysis of the deposited data

How the results depend on the processing

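Directions of all 9 tested enzymes held in every alternative run. SHMT2, ALDH1L2, PSAT1, SHMT1 and MTHFD1 each passed in all 16 alternatives other than the 2-fold criterion, under which only SHMT2 and ALDH1L2 remained. By library totals alone, the median of all tested genes was -0.18 on the log2 scale and 36.7% of all calls were higher instead of 48.4% (3153 higher, 5441 lower). Then 3 enzymes rose and 4 fell: MTHFD1L (0.12) and MTHFD2 (0.25) no longer passed, and PSPH (-0.36) and MTHFD2L (-0.49) did; 5 serine and glycine genes rose and 6 fell, and 3 purine genes rose and 6 fell. Without a filter MTHFD1L lay at 0.27 (adjusted p = 0.069). After the length-GC correction PSPH passed (-0.50), and 3 folate and 5 serine and glycine genes fell, beside 28.1% of all tested genes. MTR (0.11) and GMPS (0.34) changed sign with it, and the ratios gave 1.70 (SHMT2 to SHMT1) and 1.03 (MTHFD2 to MTHFD2L). With 2-fold required, 1324 genes rose and 2038 fell. Among them were 2 and 0 enzymes, 1 and 0 folate genes, 3 and 0 methionine genes, and 1 and 2 purine genes. Of the serine and glycine genes 2 rose, and DLD and SPTLC2 fell. Leaving out each library in turn gave 2 to 4 enzymes, 3 to 5 folate and 3 to 5 serine and glycine genes lower. Over all tested genes 3584 to 4895 were lower in these runs. The log2 fold changes then ran from -0.26 to -0.15 for PSPH, 0.24 to 0.34 for MTHFD1L and -0.46 to -0.18 for MTHFD2L. The mitochondrial share, 20.9 percentage points higher in knockout libraries, was 19.6 points higher without division by length, a comparison added after seeing the data. The cause of these shifts was not tested.

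The replicate numbers share a label only. Same-numbered libraries had correlations of deviations of 0.026, -0.066 and 0.020, and not every library correlated best with its own number. With the replicate number as a block 8308 genes passed instead of 8593 (3895 higher, 4413 lower), and MTHFD1L lay at 0.29 (adjusted p = 0.054).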
